A study of Mus musculus with 12 samples.

Results

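The 6 genes described here are the kinases that phosphorylate eIF2alpha (Eif2ak1, Eif2ak2, Eif2ak3 and Eif2ak4), Ppp1r15b, whose product brings a phosphatase to eIF2alpha in unstressed cells, and Oma1, a stress-activated protease of the inner mitochondrial membrane. They were chosen by name for these roles, with earlier results of these data known. All 6 are among the 14159 genes with a normalized count in inguinal white adipose tissue (iWAT). The study asked how loss of ATF4 in adipocytes changes iWAT during cold-induced browning, and sequenced 12 libraries, 3 for each of 4 groups. Atf4WT mice at room temperature (RT, 22 °C), Atf4AKO mice at RT, Atf4WT mice kept at 5 °C for 24 h and Atf4AKO mice kept at 5 °C for 24 h are the groups. All were on a C57BL/6 background, and both genotypes had floxed Atf4 alleles. Cre under the Adipoq promoter was present in Atf4AKO mice, so Atf4 is deleted in adipocytes and kept in the other cells of the tissue. The Atf4WT mice are littermates without Cre, which means that no group carried Cre with an intact Atf4. The age of the sequenced mice is not given in the text used here. Whole tissue was used, as strand-specific libraries of polyadenylated RNA.

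The integrated stress response is a pathway in which different stresses meet at a single phosphorylation, that of the alpha subunit of the translation factor eIF2. HRI (Eif2ak1) senses heme shortage and mitochondrial stress, PKR (Eif2ak2) double-stranded RNA, PERK (Eif2ak3) unfolded proteins in the endoplasmic reticulum, and GCN2 (Eif2ak4) amino acid shortage. Phosphorylated eIF2 blocks its exchange factor eIF2B, which lowers translation in general and raises that of Atf4. Protein phosphatase 1 reverses the mark with the help of CReP (Ppp1r15b), which is always present, or GADD34 (Ppp1r15a), which the response itself induces. OMA1 cleaves DELE1 under mitochondrial stress, and the fragment activates HRI in the cytosol. These switches act mostly on proteins, so the RNA levels below describe how much transcript of each regulator is present, not its activity.

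The listed genes took up between 25719476 and 29105147 reads in a library. Values are normalized counts, that is reads divided by the size factor of the library. The lowest of the 12 values of a member corresponds to 323 reads for Oma1, 338 for Eif2ak4, 440 for Eif2ak2, 467 for Eif2ak3, 1196 for Eif2ak1 and 3359 for Ppp1r15b. Counting error at these depths was between 1.73% for Ppp1r15b and 5.56% for Oma1, below the median coefficient of variation within the groups for each of the 6 genes (7.58% for Eif2ak1 to 18.1% for Eif2ak2). This error covers counting only.

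The tissue label was checked against marker genes. All 8 white adipocyte markers were in the table, and their summed level lay between 809031 and 1362910 normalized counts, with Fabp4 the most abundant. The 6 thermogenic markers summed to between 6441 and 9362 at RT and, with Ucp1 as the most abundant, to between 105682 and 168900 after cold, and all 6 rose in both genotypes. Ucp1, the uncoupling protein of beige and brown adipocytes, had a log2 fold change of 7.67 ± 0.471 (SE) in Atf4WT and 7.51 ± 0.471 in Atf4AKO mice. None of the 5 mammary and skin epithelium markers was in the table. This does not show that such cells were absent, because the table holds only genes with a read in every library.

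Lymphocyte and muscle markers set some libraries apart. B cell markers (9 of 12 in the table, most abundant Cd79a) summed to 117.6, 96.2 and 3976 in Atf4WT mice at RT (replicates 0, 1 and 2), to 503, 83.6 and 174 in Atf4AKO mice at RT, to 3891, 8187 and 13526 in cold-exposed Atf4WT mice and to 328, 78.2 and 92.4 in cold-exposed Atf4AKO mice. T cell markers (11 of 13, most abundant Lck) summed to 295, 194 and 804, to 367, 374 and 906, to 1038, 6969 and 8392, and to 577, 190.5 and 276 in the same order. Lymph node stroma markers (3 of 6, most abundant Cxcl13) summed to 725, 607 and 1623 in cold-exposed Atf4WT mice, against 107 to 528 in the other libraries. By their B and T cell markers the cold-exposed Atf4WT libraries were therefore high in lymphocyte RNA, as was replicate 2 of Atf4WT at RT for B cell markers. Skeletal muscle markers (3 of 5, most abundant Acta1) summed to 71044 in that same replicate and to 25584 in replicate 0 of cold-exposed Atf4WT, against 60.6 to 2678 in the other 10 libraries. The table holds only genes with at least 1 read in every library, so no listed marker is at 0. Fewer cells of a type and less RNA per cell cannot be told apart in whole tissue, for the members as for these markers.

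Atf4, the deleted gene, was read first. In Atf4WT mice it stood at 5669, 4670.3 and 4107 normalized counts at RT and at 7644, 7511 and 5756 after cold. In Atf4AKO mice it stood at 1594, 1469.6 and 1639 at RT and at 1578, 788 and 1179.8 after cold. Each Atf4AKO library was below each Atf4WT library, and the tissue also holds cells other than adipocytes, which keep the gene. The log2 fold change of Atf4AKO against Atf4WT was -2.60 ± 0.216 after cold (adjusted p = 0.000644) and -1.61 ± 0.216 at RT (adjusted p = 0.0762 in limma, 0.0873 in edgeR and 1.35e-09 in DESeq2). With the lymphocyte score of each library (the mean log2 level of its B and T cell markers) as a covariate, the value after cold was -2.65 with an adjusted p of 0.257.

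Per kilobase of transcript, the members differed in level far more than any of them differed between groups. Over the 12 libraries Ppp1r15b had 804 ± 140.2 normalized counts per kilobase (SD), more than 80.7% of the 12251 tested genes with a known length. Eif2ak1 followed at 329 ± 29.4 and Oma1 at 219 ± 26.1. Eif2ak2 (156 ± 27.3) and Eif2ak3 (147 ± 22.6) did not differ from each other beyond their spread, while Eif2ak4 was lowest at 81.3 ± 8.47 and exceeded 30.3% of tested genes. HRI is thus the kinase with the most transcript in this tissue and GCN2 the one with the least. The highest group mean of a gene over its lowest was 1.40 for Ppp1r15b, 1.34 for Eif2ak3, 1.26 for Eif2ak2, 1.21 for Oma1 and 1.17 for both Eif2ak1 and Eif2ak4.

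**Figure D1:**
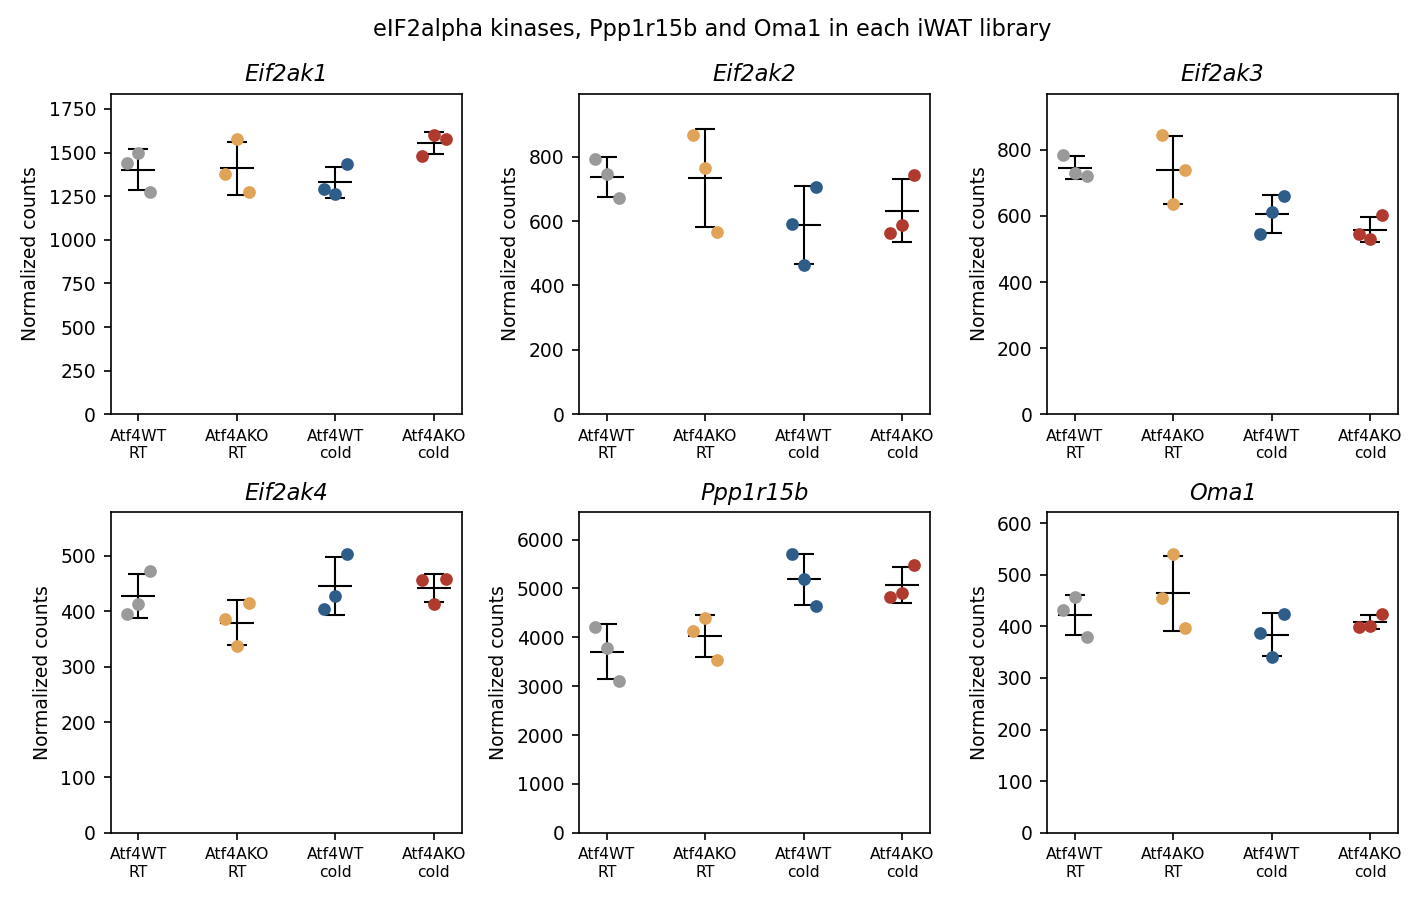
Normalized counts of the 6 members in the 12 libraries, 1 panel a gene, with points for libraries and bars for group means with SD (n = 3). Ppp1r15b is higher in all 6 cold libraries (4650.2 to 5709) than in all 6 RT libraries (3114 to 4398), while Eif2ak3 is lower after cold in both genotypes. How many of all genes separate in this way was not counted.

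Cold exposure moved 2 of the 6 genes when both genotypes were read together: Ppp1r15b rose and Eif2ak3 fell. This mean cold response, the average of the cold effects in Atf4WT and Atf4AKO mice, called 44.8% of the 13404 tested genes at an adjusted p under 0.05 (3087 higher, 2924 lower), so 2 of 6 members is no more than the background. Medians of the log2 fold change were -0.06 among members and -0.0092 among all tested genes. In Atf4WT mice 1 member was called, Ppp1r15b, with 31.9% of all genes called; in Atf4AKO mice 1 was called, Eif2ak3, with 25.9%. By the rule of the study for differentially expressed genes (fold over 1.5 and unadjusted p under 0.05) 0 members passed in either genotype or in their mean, where 21.2%, 17.2% and 19.7% of genes did. Here and below the rule is applied to limma values, while the study applied it to values from DESeq2. At an unadjusted p under 0.05 in limma, 2 members passed in each of these comparisons, against 43.4% of all genes in Atf4WT, 39.1% in Atf4AKO mice and 52.6% in the mean, and at an adjusted p edgeR and DESeq2 both called Ppp1r15b and Eif2ak3 in the mean. The cold effects in the 2 genotypes do not share libraries, but their mean contains both. Where groups are described below as not overlapping, the share of all genes separated in the same way was not counted.

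PERK, the kinase of the endoplasmic reticulum, had less transcript after cold. Eif2ak3 stood at 786, 731 and 720.4 normalized counts in Atf4WT mice at RT and at 545, 611 and 659 after cold. In Atf4AKO mice it stood at 844, 636 and 738 at RT and at 544, 529 and 602 after cold. In each genotype all 3 cold libraries were below all 3 RT libraries, and 5 of the 6 cold libraries were below all 6 RT libraries, the exception being replicate 2 of cold-exposed Atf4WT. Such separation was not counted over all genes, of which 44.8% were called in the mean cold response. Group means were 746 ± 34.9 and 605 ± 57.1 (SD, n = 3) in Atf4WT and 739.6 ± 103.9 and 558 ± 38.2 in Atf4AKO mice. In the mean over genotypes Eif2ak3 fell to 0.784 of its RT level (95% interval 0.693 to 0.888; log2 fold change -0.35, adjusted p = 0.00506).

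Within 1 genotype the Eif2ak3 call was less firm. The log2 fold change was -0.40 ± 0.115 (SE) in Atf4AKO (adjusted p = 0.0273) and -0.30 ± 0.115 in Atf4WT mice (adjusted p = 0.0654). These effects were not shown to differ, with a difference of -0.09 (95% interval -0.45 to 0.27, adjusted p = 0.996). The Atf4AKO call was lost when only the 2 groups compared were fitted (adjusted p = 0.0723) and without replicate 0 (-0.30, 0.111) or replicate 2 (-0.39, 0.0617) of Atf4AKO at RT, or replicate 0 (-0.38, 0.0653) or replicate 1 (-0.36, 0.0889) of cold-exposed Atf4AKO. Over all settings tried the adjusted p lay between 0.00921 and 0.111. The Atf4WT effect was called only without replicate 1 of Atf4AKO at RT (adjusted p = 0.0468), a library that bears on it through the shared estimate of spread.

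The promoter of Eif2ak3 is shown because this kinase is the member that fell. It holds several copies of the short CCAAT motif, the binding sequence of NF-Y, and a link of this motif to the fall was not tested. The sequence is from RefSeq (GRCm38.p6), 250 bases before to 50 after the transcript start, on the plus strand of chr6:70844265-70844564, with the letters CCAAT, or ATTGG for the opposite strand, in capitals.
Eif2ak3 promoter: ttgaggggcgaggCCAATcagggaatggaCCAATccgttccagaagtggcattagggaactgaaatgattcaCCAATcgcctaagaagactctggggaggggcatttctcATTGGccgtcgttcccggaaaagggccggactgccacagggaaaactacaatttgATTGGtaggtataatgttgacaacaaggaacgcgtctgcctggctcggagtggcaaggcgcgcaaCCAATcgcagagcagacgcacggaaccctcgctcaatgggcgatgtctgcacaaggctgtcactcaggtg
The window holds 6 matches, 4 as CCAAT and 2 as ATTGG, starting between 237 and 20 bases before the start. CCAAT in either orientation occurs in 37.4% of the 32851 windows in that table, so a match on its own is common. How many windows hold 6 matches was not counted. A match is a description of letters, not of a bound site. Windows were found for 5 of the 6 members, not for Ppp1r15b. Among these 5, Eif2ak1 had 1 CCAAT, while the windows of Eif2ak2, Eif2ak4 and Oma1 had 0. The motifs were chosen after the values of the genes had been seen.

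PKR, the kinase activated by double-stranded RNA and itself an interferon-stimulated gene, varied most between replicates. Eif2ak2 stood at 794, 747 and 671 normalized counts in Atf4WT mice at RT and at 589.6, 464 and 707 after cold. In Atf4AKO mice the values were 866, 764 and 567 at RT and 563, 587 and 744 after cold. The cold and RT libraries overlapped in both genotypes, with 2 of 6 cold libraries under the lowest RT value. Its log2 fold change was -0.35 ± 0.186 in Atf4WT, -0.20 ± 0.186 in Atf4AKO and -0.27 ± 0.131 in the mean (adjusted p = 0.177, 0.446 and 0.111), so no fall of Eif2ak2 passed the test. Without replicate 2 of Atf4AKO at RT the mean was -0.36 with an adjusted p of 0.0347, and the adjusted p over the settings tried ran from 0.0347 to 0.348.

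Other interferon-stimulated genes, listed with earlier results of these data known, fell in the cold when both genotypes were read together. Of the 23 tested genes of that list, 15 fell and 0 rose in the mean cold response (44.8% of all genes called), with a median log2 fold change of -0.51. Within a genotype 8 were lower in Atf4WT and 5 in Atf4AKO mice, with 0 higher in either. Among all 13404 genes 31.9% and 25.9% were called in either direction, and 2000 and 1479 were lower. All 23 log2 fold changes of the list were negative in each genotype. The Atf4WT count was 3 without replicate 0 of Atf4WT at RT or replicate 1 of cold-exposed Atf4WT and 2 with the lymphocyte covariate. The Atf4AKO count was 2 without replicate 0 of Atf4AKO at RT or replicate 1 of cold-exposed Atf4AKO or with only the 2 groups compared, and 3 without replicate 1 of Atf4AKO at RT. It was 8 and 11 without replicate 2 and replicate 1 of cold-exposed Atf4WT, 9 without replicate 2 of cold-exposed Atf4AKO, 12 by DESeq2 and 14 after 75th percentile rescaling. Oasl2, an oligoadenylate synthetase-like antiviral gene, stood at 944, 639 and 821 normalized counts in Atf4WT mice at RT against 463, 230.1 and 427.5 after cold. In Atf4AKO mice it stood at 924, 756 and 686 against 403, 259.6 and 619, so that in each genotype the cold libraries lay below those at RT. Its log2 fold change was -1.05 ± 0.227 (adjusted p = 0.0033). Ifih1, the sensor MDA5, had -0.72 ± 0.0836, and Isg15, a ubiquitin-like modifier, -0.71 ± 0.158. Macrophage markers (7 of 8 in the table, most abundant Lyz2) had a median of -0.90 on the log2 scale in this comparison; their summed level was 31417, 25402 and 33016 in Atf4WT and 44773, 24534 and 29830.1 in Atf4AKO mice at RT, and 31072, 13671 and 34708 and then 29415, 4868 and 28922 after cold. Of these 7, limma called 0 (1 had an unadjusted p under 0.05), as did edgeR and DESeq2. Fibroblast and progenitor markers (5 of 5, most abundant Dcn) had a median of -0.93, and limma called 3 of the 5 lower: Dcn, Pdgfra and Col1a1. Their summed level was 56965 ± 8084 in Atf4WT and 57846 ± 14023 in Atf4AKO mice at RT, and 28646 ± 14223 and 26064 ± 14044 after cold (SD, n = 3). The part of these cell types in the lower values of the interferon-stimulated genes, Eif2ak2 and Eif2ak3 was not tested.

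The promoters of Eif2ak2 and Isg15 are set side by side because both genes carry the core of the interferon-stimulated response element, searched as GAAA, any 2 bases and GAAA again, or TTTC, any 2 bases and TTTC for the other strand. Both lie on the minus strand of GRCm38.p6 and are printed in the direction of transcription, from RefSeq: Eif2ak2 at chr17:78882523-78882822 and Isg15 at chr4:156200769-156201068, with matches in capitals. Isg15 was picked for this display after its values were seen.
Eif2ak2 promoter: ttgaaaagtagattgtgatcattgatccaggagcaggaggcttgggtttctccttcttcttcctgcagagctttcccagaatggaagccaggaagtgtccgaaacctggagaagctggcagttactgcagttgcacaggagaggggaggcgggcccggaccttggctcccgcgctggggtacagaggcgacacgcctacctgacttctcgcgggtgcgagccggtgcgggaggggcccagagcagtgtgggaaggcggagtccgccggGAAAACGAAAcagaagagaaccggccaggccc
Isg15 promoter: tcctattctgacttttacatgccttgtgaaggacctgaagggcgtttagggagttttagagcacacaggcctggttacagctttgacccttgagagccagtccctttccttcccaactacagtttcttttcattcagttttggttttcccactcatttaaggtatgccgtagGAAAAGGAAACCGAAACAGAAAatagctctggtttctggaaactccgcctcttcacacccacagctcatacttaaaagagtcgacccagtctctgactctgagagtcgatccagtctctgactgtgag
Eif2ak2 has 1 match, which begins 18 bases after the start of the transcript in this table. Isg15 has 3 overlapping matches, 78, 72 and 66 bases before its start. Of all 32851 windows 3.44% hold the motif, against 10 of the 18 windows found for 16 genes of the interferon list; the other member windows hold none. The core of the element bound by ATF4 with C/EBP proteins, searched as TGATGNAA or TTNCATCA, is in 3.97% of windows and in 0 of the 6 windows of members, Eif2ak4 having 2 of these windows. The letters alone say nothing of which factor was bound in this tissue.

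HRI, the kinase with the most transcript, kept to a narrow range. Eif2ak1 ranged from 1262 to 1575 normalized counts in 9 libraries outside the cold-exposed Atf4AKO group, in which it stood at 1483, 1599 and 1578. Those 3 values lie above the 3 of cold-exposed Atf4WT mice (1290.2, 1262 and 1432) but overlap those of Atf4AKO mice at RT (1379, 1575 and 1275). After cold the log2 fold change of Atf4AKO against Atf4WT was 0.23 ± 0.096, with an unadjusted p of 0.0373 in limma and an adjusted p of 0.373, so it did not pass. With the lymphocyte score as a covariate this value was 0.01. Cold effects on Eif2ak1 were -0.08 in Atf4WT and 0.14 in Atf4AKO mice, neither called, with a difference of 0.22 (95% interval -0.08 to 0.52, adjusted p = 0.908). Eif2ak1, on chr5:143817788-143904251 of GRCm38, overlaps Aimp2 (mean 457 normalized counts) and Ankrd61 (5.13) on the opposite strand; the strand setting of the counting is not given, so reads of Aimp2 in the shared stretch may be part of its value.

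OMA1 and DELE1 form the relay from mitochondria to HRI. In the mean cold response Dele1 was called and Oma1 was not, and the difference between these genes was not tested. Oma1 ranged from 380 to 541 normalized counts at RT and from 341 to 424 after cold, with overlap in both genotypes. Its mean cold response was -0.16 ± 0.0933 on the log2 scale (adjusted p = 0.191), not a call. Dele1, whose product OMA1 cleaves, stood at 1129, 1082 and 917 in Atf4WT and 1043, 1069 and 865 in Atf4AKO mice at RT, and at 1195, 1206 and 1153 and at 1116, 1322 and 1365 after cold. In each genotype all 3 cold libraries were above all 3 at RT, and Dele1 rose 1.21-fold in the mean (log2 fold change 0.27 ± 0.0799, adjusted p = 0.0172). Separation of this kind was not counted over all genes.

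The list of mitochondrial partners, chosen with earlier results of these data known, mostly rose. Of its 12 tested genes, Dele1 included, 9 rose and 1 fell in the mean cold response, where 44.8% of all genes were called, with a median log2 fold change of 0.58. Afg3l2, a subunit of the matrix-side AAA protease of the inner membrane, went from 2719 ± 155 to 5281 ± 139.5 normalized counts (SD, n = 3) in Atf4WT and from 2882 ± 423 to 5922 ± 636 in Atf4AKO mice. Its log2 fold change in the mean was 1.00 ± 0.0769. The prohibitins Phb (0.81) and Phb2 (0.90), the chaperonins Hspd1 (0.65) and Hspe1 (0.88), the matrix protease Clpp (0.61), Opa1 (0.55), the fusion GTPase that OMA1 cleaves, and the phosphatase Pgam5 (0.49) rose as well. Htra2, a protease of the intermembrane space, fell (-0.19), while Yme1l1 (0.06) and Lonp1 (0.08) were not called. Oma1, like Yme1l1 and Lonp1, was therefore not among the mitochondrial genes called higher in the mean cold response.

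GCN2 had the least transcript of the kinases and no call. Eif2ak4 ranged from 337 to 472 normalized counts at RT and from 404 to 504 after cold. Atf4AKO mice at RT had the lowest group mean (379.6 ± 40.01, SD, n = 3), against 427 ± 39.7 in Atf4WT mice at RT. The log2 cold effect was 0.06 in Atf4WT and 0.23 in Atf4AKO mice (adjusted p = 0.749 and 0.197), and the mean was 0.14 ± 0.0865. Under the lymphocyte covariate the mean was 0.0051, and the difference between the genotypes went from 0.17 to 0.55 (unadjusted p = 0.023 in limma, adjusted p = 0.936). Among its regulators, Gcn1, the ribosome-bound activator, held between 1626 and 1996 in all 12 libraries, with a mean cold response of -0.01. Impact, which competes for GCN1, rose by a log2 fold change of 0.23 ± 0.0545 (adjusted p = 0.00597) in the mean. It was called in Atf4AKO mice (0.37 ± 0.0771, adjusted p = 0.00545) and not in Atf4WT mice (0.08, adjusted p = 0.453), and the difference was not called (0.29, adjusted p = 0.5695).

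Regulators of the kinases, those of GCN2 included, were called about as often as all genes (44.8%). Of the 11 tested genes in this list, 4 rose and 2 fell in the mean cold response (median log2 fold change 0.09). Prkra, which encodes the PKR activator PACT, fell (-0.29 ± 0.0622), whereas Tarbp2, which encodes the PKR inhibitor TRBP, rose (0.52 ± 0.0674). Hspa9, the mitochondrial chaperone mortalin, rose most in this list (0.99 ± 0.108), and Abcf3, whose yeast relative binds GCN1, rose by 0.32 ± 0.0559. Dnajc3, the PERK and PKR inhibitor p58IPK, fell (-0.16 ± 0.0551). Hspa5, the chaperone BiP that holds PERK inactive, had 0.15 ± 0.0629 with an adjusted p of 0.0665, so no rise was called.

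CReP, the constitutive partner of the eIF2alpha phosphatase, had more transcript after cold. Ppp1r15b stood at 4221, 3792 and 3114 normalized counts in Atf4WT mice at RT and at 5709, 5198 and 4650.2 after cold. In Atf4AKO mice it stood at 4133, 4398 and 3546 at RT and at 4823, 4903 and 5483 after cold. All 6 cold libraries were above all 6 RT libraries, with no overlap between 3114 to 4398 and 4650.2 to 5709. How many of all genes separated in this way was not counted, and 44.8% of them were called in the mean cold response. Group means were 3709 ± 558 and 5186 ± 529.7 (SD, n = 3) in Atf4WT and 4026 ± 436 and 5069.7 ± 360.3 in Atf4AKO mice. In the mean over genotypes Ppp1r15b rose 1.33-fold (95% interval 1.16 to 1.52; adjusted p = 0.00309).

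The rise of Ppp1r15b was called in Atf4WT and not in Atf4AKO mice, which does not show that it differed. Its log2 fold change was 0.49 ± 0.125 (SE) in Atf4WT (1.40-fold, adjusted p = 0.0128) and 0.34 ± 0.125 in Atf4AKO mice (1.26-fold, adjusted p = 0.0692). The difference was -0.15 (95% interval -0.54 to 0.23, adjusted p = 0.996). In Atf4AKO mice Ppp1r15b was called under 3 of 22 alternatives, among them DESeq2 (adjusted p = 0.0467) and the fit without replicate 2 of Atf4WT at RT (0.0413), and over the settings tried the adjusted p lay between 0.0413 and 0.207. With the lymphocyte score as a covariate the cold effect was 0.87 in Atf4WT (adjusted p = 0.00438) and 0.27 in Atf4AKO mice (0.0508), and the difference between them was -0.60 (unadjusted p = 0.00875 in limma, adjusted p = 0.936). The score itself was 7.37, 9.40 and 9.87 in cold-exposed Atf4WT libraries and 3.41 to 7.19 in the other 9, so covariate and group overlap little. The part of lymphocyte RNA in these values was not tested further.

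GADD34, the inducible partner of the same phosphatase, is transcribed under the control of the response itself. Ppp1r15a stood at 526, 534 and 494 normalized counts in Atf4WT mice at RT and at 810.5, 931 and 768 after cold. In Atf4AKO mice it stood at 433, 599 and 516 at RT and at 680.3, 516 and 689.8 after cold. The cold libraries of Atf4WT mice were above every other library, while those of Atf4AKO mice overlapped their RT values. Ppp1r15a rose in Atf4WT mice (log2 fold change 0.69 ± 0.144, adjusted p = 0.00498) and in the mean (0.49 ± 0.102, adjusted p = 0.0028). With the lymphocyte score as a covariate the Atf4WT call was lost (0.73, adjusted p = 0.0749). The value in Atf4AKO mice was 0.28 ± 0.144 (adjusted p = 0.169), and the difference between the genotypes was not called (-0.40, 95% interval -0.85 to 0.05, adjusted p = 0.794). Atf4AKO against Atf4WT after cold was -0.42 ± 0.144 (adjusted p = 0.237).

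Both partners of the phosphatase, and 2 of its 3 catalytic subunits, rose in the mean cold response. Of the 5 genes in this list, Ppp1r15b included, 4 rose and 0 fell, where 44.8% of all genes were called (3087 of 13404 higher). The median log2 fold change was 0.28. In Atf4WT mice 3 rose, where 31.9% of all genes were called, and in Atf4AKO mice 1, Ppp1cb (25.9%). Over the settings tried these counts ran from 1 to 3 and from 0 to 2. In the mean, Ppp1cb (0.24 ± 0.0644) and Ppp1cc (0.28 ± 0.0656) rose, and Ppp1ca, the most abundant of the 3, was at 0.01 ± 0.082. The substrate and its exchange factor also had members that rose. Of 8 tested eIF2 and eIF2B genes, 4 rose and 0 fell (median 0.21). These 4 calls were near the 44.8% of all genes called in either direction, while 3087 of 13404 genes were called higher. Eif2b4 had the largest value (0.54 ± 0.0699), followed by Eif2b3 (0.42), Eif2b1 (0.38) and Eif2s2 (0.20); Eif2s1, which encodes eIF2alpha itself, had 0.21 ± 0.101 with an adjusted p of 0.11.

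**Figure D2:**
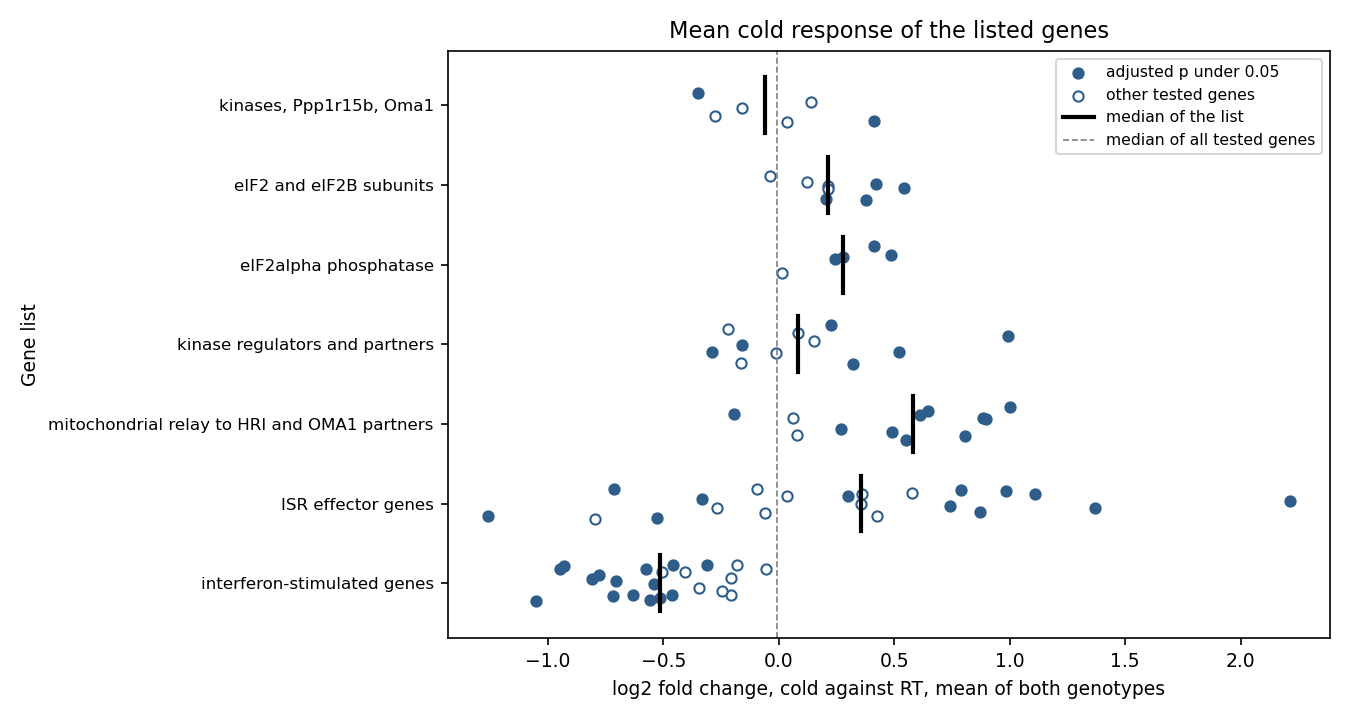
Log2 fold changes of the mean cold response for the 6 members (top) and each gene of the 6 pathway lists, 1 row a list, with called genes marked and the list median drawn. The list of mitochondrial partners has the highest median (0.58), and the interferon-stimulated genes have the lowest (-0.51), next to -0.0092 for all tested genes. All lists were chosen with earlier results of these data known.

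Downstream of the kinases, 8 of 21 tested effector genes rose in the mean cold response and 4 fell, with a median log2 fold change of 0.36, where 44.8% of all genes were called. Fgf21, an endocrine factor secreted under mitochondrial stress, had 2.21 ± 0.383, Atf5, a transcription factor translated like ATF4, 0.98 ± 0.0815, and Ddit3, which encodes CHOP, 0.74 ± 0.138. At RT Fgf21 was scarce (mean 6.59 normalized counts in Atf4WT and 6.06 in Atf4AKO mice, against 47.3 and 23.8 after cold), as was Gdf15, another of the 8 (7.17 and 8.91 against 25.4 and 30.5), so both reached the filter at a mean of 10 through their cold libraries. Phgdh, the first enzyme of serine synthesis, fell (-1.26 ± 0.0941), as did Eif4ebp1, an inhibitor of cap-dependent translation (-0.72 ± 0.112).

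**Figure D3:**
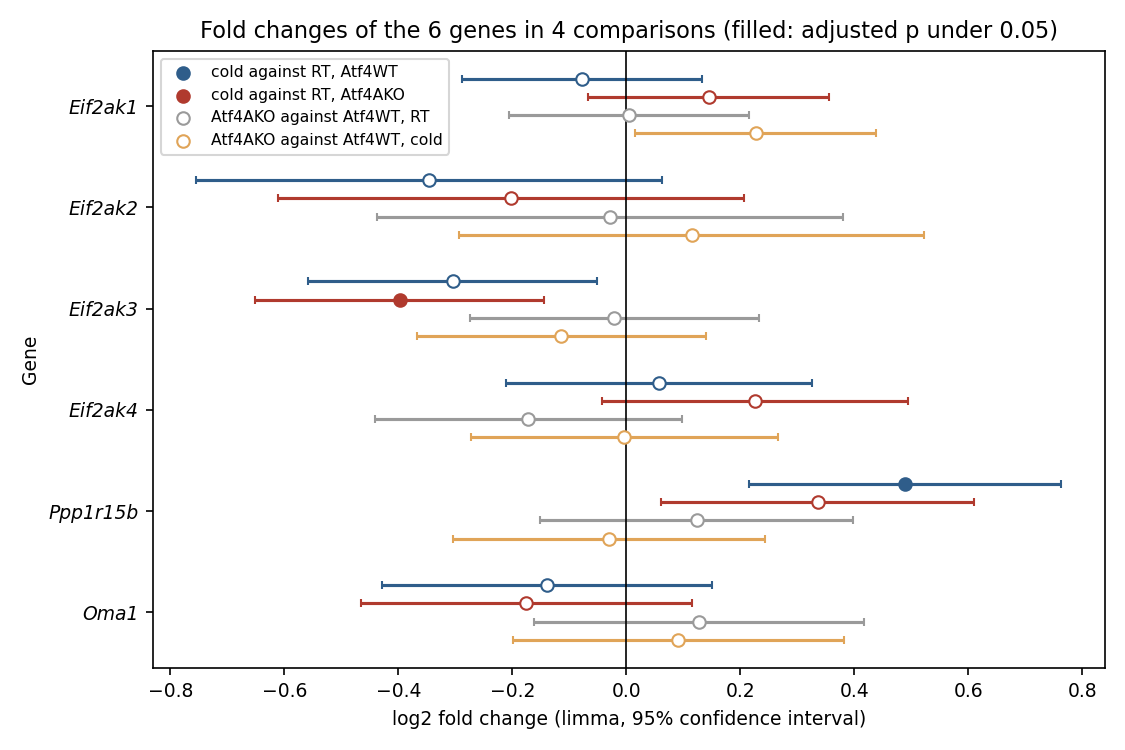
Log2 fold changes of the 6 members in 4 comparisons fitted with limma, with 95% intervals, called values marked. The intervals of Ppp1r15b (above 0) and Eif2ak3 (below 0) exclude 0 for cold against RT in each genotype. Between genotypes all intervals of the members include 0 at RT. After cold only that of Eif2ak1 excludes 0 (0.016 to 0.438), and it is not called.

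Between genotypes no member differed by the adjusted test. At RT limma called 0 of the 6 members and 0.00746% of the 13404 genes (1 gene); 0 members had an unadjusted p under 0.05, and edgeR and DESeq2 called 0 members each. The largest log2 value of a member was -0.17 ± 0.122 for Eif2ak4, and Oma1 (0.13) and Ppp1r15b (0.12) were next. After cold limma called 0 members and 0.0298% of genes (4 genes, all lower in Atf4AKO mice), with 0 members by edgeR and by DESeq2; 1 member, Eif2ak1, had an unadjusted p under 0.05, as had 11.7% of all genes. That count of 4 genes was 515 without replicate 0 of cold-exposed Atf4WT, 146 without replicate 2 of Atf4WT at RT, 590 by DESeq2 and 0 with the lymphocyte covariate or only the 2 groups compared. By the rule of the study 0 members passed, where 0.463% of genes passed at RT and 6.4% after cold. These comparisons share their libraries with the cold comparisons above.

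Ppp1r15b was almost level between genotypes after cold, at -0.03 ± 0.125 on the log2 scale (95% interval -0.30 to 0.24). With the lymphocyte score as a covariate it was -0.49 (unadjusted p = 0.0141 in limma, adjusted p = 0.999), a change in size that came with that setting. Among the effector genes Atf4 and Atf5 were called lower in cold-exposed Atf4AKO mice. Atf5 stood at 9948 ± 1365 normalized counts (SD, n = 3) in cold-exposed Atf4WT and 5056 ± 649 in cold-exposed Atf4AKO mice (log2 fold change -0.97 ± 0.115, adjusted p = 0.0156). That count of 2 of 21 was 0 when only the 2 groups compared were fitted or with the lymphocyte covariate, 4 by DESeq2, and 1 without replicate 1 of cold-exposed Atf4WT or without replicate 0 or replicate 2 of cold-exposed Atf4AKO. At RT Atf5 also stood lower in Atf4AKO (2826 ± 163) than in Atf4WT mice (4512 ± 189). There limma called 0 of the 21 effector genes, and over the settings tried 0 to 2 were called.

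The interaction, that is the cold response of Atf4AKO minus that of Atf4WT mice, was called for 0 of the 6 members and for 0% of all genes in limma (0 of 13404; 928 with an unadjusted p under 0.05, 0 members among them). By the rule of the study 4.63% of genes and 0 members passed. For all genes edgeR called 0 and DESeq2 132, and neither called a member; without replicate 0 of cold-exposed Atf4WT limma called 64 genes. The members' intervals were wide next to their cold effects, that of Eif2ak2 running from -0.43 to 0.72 around a difference of 0.14. For B and T cell markers the median difference was -4.97 and -4.25, with 0 called by adjusted p and all 9 and all 11 past the rule of the study.

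Ratios within a library do not depend on how libraries were scaled. Each kinase was taken as a share of the 4 kinases per kilobase of transcript. HRI held 43.6 ± 1.75% of the kinase transcripts in Atf4WT and 44.5 ± 3.998% in Atf4AKO mice at RT, 46.4 ± 1.34% in cold-exposed Atf4WT and 50.3 ± 2.25% in cold-exposed Atf4AKO mice (SD, n = 3). PERK held 22.7%, 21.3% and 22.8% in Atf4WT mice at RT, 24.0%, 18.9% and 24.4% in Atf4AKO mice at RT, 19.1%, 21.9% and 19.8% in cold-exposed Atf4WT and 17.7%, 16.7% and 17.6% in cold-exposed Atf4AKO mice. The PERK share of cold-exposed Atf4AKO libraries was below that of every other library. Its change from RT in Atf4AKO mice was -5.10 percentage points and its gap to cold-exposed Atf4WT -2.95 points, each with a two-sided exact permutation p of 0.1, the smallest that 3 against 3 libraries allow, so this test cannot reach 0.05.

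The inducible and the constitutive phosphatase partners were also set against each other. Ppp1r15a over Ppp1r15b, per kilobase, was 0.299, 0.338 and 0.380 in Atf4WT mice at RT, 0.251, 0.327 and 0.349 in Atf4AKO mice at RT, 0.340, 0.429 and 0.396 in cold-exposed Atf4WT and 0.338, 0.252 and 0.302 in cold-exposed Atf4AKO mice. CReP transcript thus exceeded GADD34 transcript in all 12 libraries. After cold each Atf4AKO library was below each Atf4WT library, by -0.0913 in the mean (exact permutation p = 0.1). The change with cold was 0.0496 in Atf4WT (exact p = 0.2) and -0.0116 in Atf4AKO mice (exact p = 0.8).

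**Figure D4:**
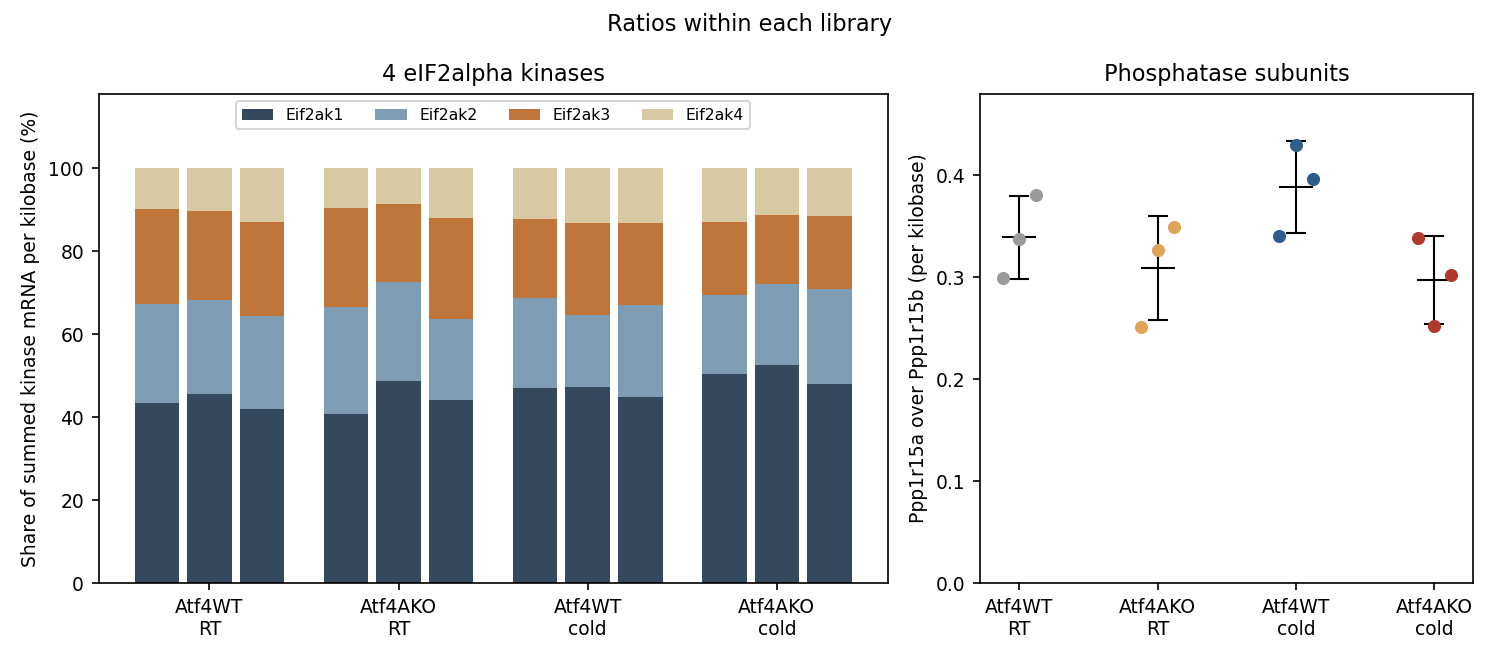
Share of each kinase in the sum of the 4 kinases (left) and ratio of Ppp1r15a to Ppp1r15b (right, with group means and SD, n = 3), both per kilobase, for the 12 libraries by group. The Eif2ak3 share is lowest in cold-exposed Atf4AKO libraries (16.7% to 17.7%), and the mean Eif2ak1 share is highest there (50.3%).

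Some genes followed a member closely over the 12 libraries, given as Pearson r on the log2 scale among 11842 genes, as a description. Ppp1r15b was followed most closely by 1700037H04Rik (0.9745), Tbc1d13 (0.974) and Psmd3 (0.966). For Eif2ak3 these were Ago1 (0.942), Mtr (0.941) and Dek (0.938), for Eif2ak2 Mfap3 (0.967), Tbl1x (0.957) and Alg10b (0.946), and for Eif2ak1 Trnt1 (0.931), Oxsm (0.925) and Unc5a (0.908). Eif2ak4 was followed by Mysm1 (0.935), Kdm5d (0.917) and Gcfc2 (0.902), and Oma1 by Gpr107 (0.933), Pank3 (0.932) and Gdi2 (0.896). After the group means were taken away, r ranged from 0.821 for Ago1 with Eif2ak3 to 0.959 for Tbc1d13 with Ppp1r15b. All these values come from the same 12 libraries in 4 groups.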

How the data were processed

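The samples are 12 libraries of whole iWAT RNA, 3 in each of 4 groups. The deposited values are a normalized signal: per the labels and methods, the authors mapped reads to mm10 with STAR, counted them with featureCounts and divided each library by its DESeq2 size factor. Tool versions and the strand setting of the counting are not given. Dividing each library by its smallest value gave whole reads for 100% of values within 0.001; for replicate 1 of Atf4AKO at RT, whose size factor is close to 1, this rests on that division alone. These recovered reads (25719476 to 29105147 per library) were used only for count tests.

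The main test was limma 3.58.1 (lmFit, eBayes with trend) in R 4.3.3 on log2(normalized count + 1) and covered 13404 genes, those whose mean reached 10 normalized counts; 755 genes, no member among them, did not. The model held 4 group means, and p-values were adjusted by Benjamini-Hochberg over all tested genes, with calls at an adjusted p under 0.05. On recovered reads edgeR 4.0.16 called 4307 genes for cold in Atf4WT, 3464 for cold in Atf4AKO, 1 between genotypes at RT and 3 after cold; DESeq2 1.42.0 called 4800, 4023, 5 and 590. Other alternatives were pseudocounts of 0.5 and 5, no filter, a filter at 50, only the groups compared, rescaling to the 75th percentile, a replicate block, the lymphocyte score as a covariate (13384 genes) and leaving out each library. The limma, edgeR and DESeq2 fits were checked on simulated data.

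Named are the 6 members, genes of 6 pathway lists (called ones and the partners described), marker genes, and for each member the 3 genes of highest r with a mean of at least 50. Members and lists were chosen with earlier results of these data known. Lengths are of 1 transcript a gene, from GENCODE; promoter windows are from RefSeq. Remaining values and plots were made in Python 3.11.15 (pandas 2.3.3, numpy 2.4.6, matplotlib 3.10.9). No library was left out of the main test.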

Additional observations from a re-analysis of the deposited data

How the results depend on the processing

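Of 780 recomputed log2 fold changes of the members, 745 kept their direction; the others belong to results of at most 0.143 in size, none of them called. The rise of Ppp1r15b was called under 22 of 22 alternatives in Atf4WT and 21 of 21 in the mean over genotypes, and the fall of Eif2ak3 under 21 of 21 in the mean and 17 of 22 in Atf4AKO mice. Rescaling to the 75th percentile moved the median of all genes by at most -0.0602. Where a value below changed its direction or side of the threshold, the cause was not tested. Counting error was at most 5.56% for a member, below the median spread within groups of each, though not below that of every group: for Oma1 the lowest was 3.33%.

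For cold in Atf4AKO mice, 0 members were called when only the 2 groups compared were fitted (Eif2ak3 at -0.40, adjusted p = 0.0723; 18.9% of all genes called), and 2 by DESeq2 (Ppp1r15b at 0.33, adjusted p = 0.0467, with Eif2ak3; 4023 genes called). With a replicate block, 2 members were called there (Ppp1r15b at 0.34, adjusted p = 0.0455, and Eif2ak3), 1 for cold in Atf4WT mice, 2 in the mean and 0 in each other comparison; of all genes the replicate block called 30.8%, 36.2% and 48.6% in these cold comparisons, and it gave 189 calls between genotypes after cold instead of 4 and 14 interferon-stimulated genes for cold in Atf4AKO mice instead of 5. The replicate numbers were not taken to pair libraries, because not every r of libraries with the same number was above 0.1. After group means were taken away, r was between -0.22 and 0.42 for 18 pairs with the same number (9 above 0.1) and between -0.54 and 0.34 for 36 pairs with different numbers (9 above 0.1). All 6 pairs of replicate 1 were positive (0.18 to 0.40), while libraries did not all correlate best with their own number; this is a hint from the data, and nothing in the labels ties the numbers to a litter or day.

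With the lymphocyte score as a covariate, the log2 fold change changed sign for cold in Atf4WT mice to 0.099 for Eif2ak1, -0.27 for Eif2ak4 and 0.076 for Oma1. For Atf4AKO against Atf4WT it became -0.0028 for Eif2ak1 at RT, and after cold -0.067 for Eif2ak2, 0.045 for Eif2ak3, 0.39 for Eif2ak4 and -0.17 for Oma1. For the interaction it became -0.032 for Eif2ak2 and 0.060 for Eif2ak3. Without a change of sign it became 0.017 for Eif2ak1 in the interaction. It likewise became -0.20 for Eif2ak2 with cold in Atf4WT mice and -0.067 for Oma1 in the mean cold response. Rescaling to the 75th percentile gave Eif2ak1 -0.0091 in the mean cold response and -0.0044 between genotypes at RT. With edgeR these were -0.0013 for Eif2ak1 between genotypes at RT and 0.00069 for Eif2ak4 after cold.

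Leaving out each library in turn gave 1 to 2 members called for cold in Atf4WT and 0 to 2 in Atf4AKO mice, next to 22.5% to 33.1% and 16.5% to 26.5% of all genes. For cold in Atf4AKO mice the log2 fold change of Eif2ak3 ran from -0.50 to -0.30 and that of Ppp1r15b from 0.25 to 0.40. For cold in Atf4WT mice Eif2ak3 ran from -0.37 to -0.23 and Eif2ak4 from -0.035 to 0.13. With cold Eif2ak2 ran from -0.49 to -0.19 in Atf4WT and from -0.38 to -0.070 in Atf4AKO mice. The cold effect on Eif2ak1 ran from -0.15 to -0.029 in Atf4WT and from 0.075 to 0.23 in Atf4AKO mice. In the mean cold response Eif2ak1 ran from -0.0012 to 0.075, Eif2ak2 from -0.36 to -0.20 and Oma1 from -0.21 to -0.099. Between genotypes at RT the ranges were -0.078 to 0.074 for Eif2ak1, -0.16 to 0.14 for Eif2ak2 and -0.12 to 0.083 for Eif2ak3. They were -0.24 to -0.088 for Eif2ak4, 0.0032 to 0.22 for Ppp1r15b and 0.012 to 0.24 for Oma1. After cold they were -0.043 to 0.26 for Eif2ak2, -0.071 to 0.089 for Eif2ak4 and -0.11 to 0.042 for Ppp1r15b. For the interaction they were -0.030 to 0.29 for Eif2ak2, -0.20 to 0.0067 for Eif2ak3 and -0.14 to 0.079 for Oma1. Those of Ppp1r15b and Eif2ak4 were -0.25 to -0.033 and 0.084 to 0.26. Among ratios within a library, the change of Ppp1r15a over Ppp1r15b with cold in Atf4AKO mice ran from -0.0404 to 0.011. Between genotypes at RT the share of Eif2ak1 differed by -1.22 to 2.76 percentage points, that of Eif2ak2 by -1.33 to 1.72 and that of Eif2ak3 by -0.854 to 1.93; after cold the share of Eif2ak2 differed by -1.48 to 0.908.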
